A study of Drosophila melanogaster with 6 samples.

Results

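Receptor tyrosine kinases carry signals from outside the cell through a kinase domain inside it, and Egfr, the epidermal growth factor receptor of the fly, was examined here beside 9 other receptor genes of this class: Pvr, InR, Alk, btl, htl, sev, tor, drl and Ror. The members were all probe sets that the array's annotation gives 1 gene symbol, where that symbol is one of these 10 names. All 10 genes, of 10844 with such a probe set, were found, with 11 of the 14010 probe sets in the table: 2 for Egfr (142966_at and 151735_at) and 1 for each other gene. RNA of Drosophila melanogaster wing discs, the larval epithelia that form the adult wing, taken in the third instar, was measured on 6 arrays. With 71B-Gal4 as driver, 3 samples (DN1 to DN3) expressed a dominant negative, signal-blocking Egfr transgene and 3 (ACT1 to ACT3) an activated one, labelled TOP after torpedo, another name of Egfr. Both groups carry the driver and a transgene of Egfr. Discs free of transgenes were not analysed here, and neither group can serve as a baseline. The labels give neither the structure of the transgenes nor whether the replicates came from separate animals, so the spread behind the p-values is that between the 3 samples of a group and may be technical.

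A ligand brings receptors of this class together, they phosphorylate each other, and adaptor proteins then link them to Ras and the kinase ERK or to phosphoinositide 3-kinase. In the wing disc Egfr signalling patterns the veins and the notum and supports growth, and it switches on its own inhibitors. The insulin receptor InR drives growth, Pvr is the receptor of PDGF- and VEGF-like ligands, and btl and htl are the FGF receptors of the tracheal air tubes and of mesoderm. Alk, sev and tor are best known from visceral muscle, the R7 photoreceptor and the ends of the embryo, and drl and Ror belong to families that bind Wnt ligands.

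The values are log2 signals that the authors made with GCRMA, in which a step of 1 is a doubling. Array medians lay between 8.01 and 8.06. As a rough background, the mean of 4 control probe sets for yeast transcripts was 5.54 to 5.96, depending on the array. All 8 measured genes of 10 listed wing disc markers lay above each of these controls on all 6 arrays. The mean of 4 control probe sets for mouse transcripts was higher, 6.08 to 6.47. The highest non-fly control, yeast or mouse, read 6.56 to 7.14, depending on the array. The difference between the 3′ and 5′ probe sets of a control gene, which reflects RNA integrity and labelling, was 0.36 to 1.68 for actin, highest in DN3, 0.76 to 1.45 for eIF-4a and 1.00 to 2.00 for GAPDH. For the small-subunit ribosomal RNA it was 3.36 to 4.38 in DN1, DN2 and ACT1 and 1.08 to 1.32 in DN3, ACT2 and ACT3. The part of these differences in the receptors' values was not tested. Probe sets differ in sensitivity, so no level of one receptor is set against that of another, and the order of the receptors by abundance cannot be read from these arrays.

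Egfr was higher in activated discs at one of its probe sets and not at the other. At 142966_at the signal was 10.40, 10.26 and 10.82 in ACT1, ACT2 and ACT3, and 8.50, 9.33 and 9.09 in DN1, DN2 and DN3. Every activated disc sample lay above every dominant negative one. The log2 difference, activated minus dominant negative, was 1.52 (SE 0.23, 95% interval 0.99 to 2.05, n = 3 against 3), or 2.87-fold. It exceeded the SD of either group, 0.29 in activated and 0.43 in dominant negative discs. This was the highest log2 difference of all 13966 probe sets tested and the second by size of p. It did not pass the threshold of 0.05 after Benjamini-Hochberg adjustment over all of them (limma adjusted p = 0.715), nor with any alternative run (limma adjusted p = 0.130 to 1.00).

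At 151735_at the same gene read 8.50, 8.79 and 9.75 in ACT1, ACT2 and ACT3, and 8.66, 10.03 and 10.11 in DN1, DN2 and DN3. The groups overlapped, since DN1 lay with the 2 lowest activated samples and ACT3 lay near DN2 and DN3. A log2 difference of -0.59 (SE 0.42, 95% interval -1.54 to 0.36, limma adjusted p = 1.00) resulted. It was -1.06 without DN1, -0.96 without ACT3 and -0.33 without either DN3 or ACT1, so the size of this difference rested on single arrays. Averaging both probe sets gave a log2 difference of 0.47 (SE 0.31, limma adjusted p = 1.00), which represents neither of them.

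**Figure D1:**
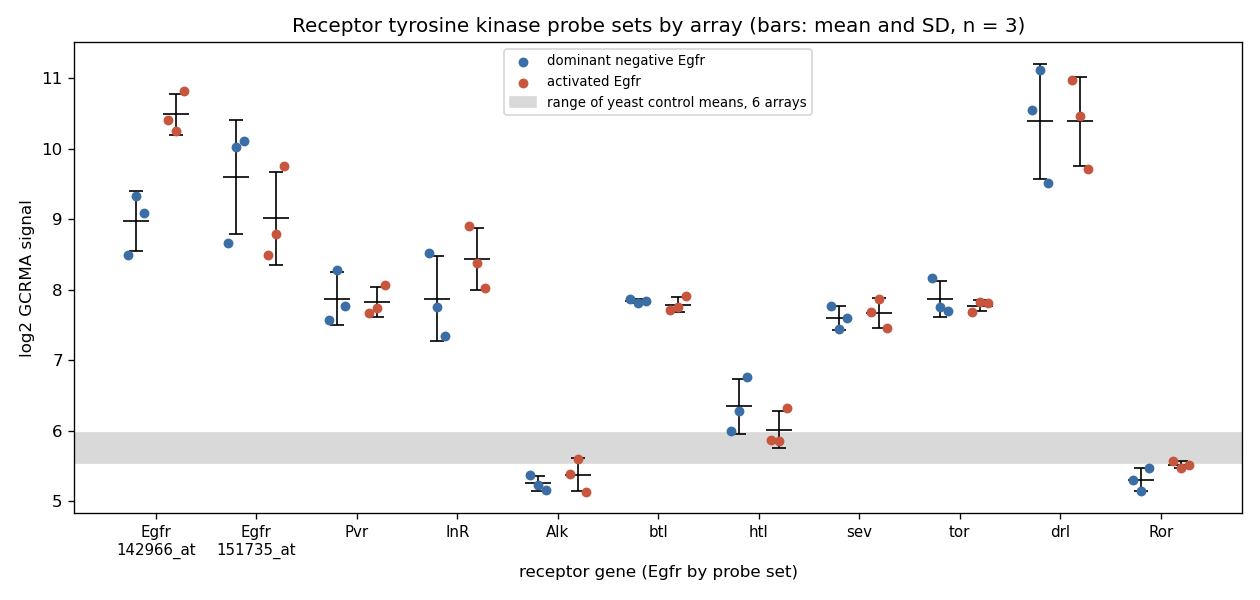
Log2 GCRMA signal (vertical axis) of each receptor probe set, with 1 point per array, blue for dominant negative and red for activated Egfr, and the mean and SD of 3 arrays in black; the grey band spans the yeast control means, 5.54 to 5.96. Only at Egfr probe set 142966_at do the groups not overlap, and Alk and Ror lie at or below the band.

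The disagreement between the Egfr probe sets was then taken within each array, which removes any shift of a whole array. The value of 142966_at minus that of 151735_at was 1.90, 1.47 and 1.07 in ACT1, ACT2 and ACT3, and -0.17, -0.70 and -1.02 in DN1, DN2 and DN3. It was positive in all 3 activated samples and negative in all 3 dominant negative ones. The means were 1.48 ± 0.42 and -0.63 ± 0.43 (SD, n = 3 each), a difference of 2.11 on the log2 scale. An exact two-sided permutation test gave p = 0.1, the smallest that 3 against 3 arrays can give, so the test could not pass 0.05. Which part of the Egfr transcript each probe set reads, and whether either reads RNA of the transgenes, is not known here. RNA of the transgene and of the resident gene therefore cannot be told apart, and neither probe set checks the labels.

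The probe sets also differed in what else on the arrays ran with them. For 142966_at, the 5 probe sets of other genes with the highest Pearson r over the 6 arrays were those of Dtg (0.98), CG6685 (0.98), IntS4, which encodes an Integrator complex subunit (0.97), Pli, which encodes Pellino (0.97), and Blm, a DNA helicase gene (0.97). The values of 142966_at themselves lie in 2 clumps, the groups, so choosing by r fixed that these 5 also separate them. Dtg read 9.49, 9.76 and 9.58 in DN1, DN2 and DN3 against 9.94, 9.88 and 10.11 in ACT1, ACT2 and ACT3. The log2 difference of these 5 ran from 0.16 for Blm to 0.36 for Dtg (adjusted p = 1.00 for each, limma), all smaller than that of Egfr. An r of at least 0.9 to 142966_at was found for 46 of the 13965 other probe sets.

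For 151735_at the 5 most similar were those of obst-A, a chitin-binding protein gene (r = 0.997), CG5938 (0.997), Fer1HCH, the ferritin heavy chain gene (0.996), Pdss2 (0.996) and the salivary glue protein gene Sgs7 (0.995). An r of at least 0.9 was found for 515 of the 13965 other probe sets. The 6 values of 151735_at lay in 2 clumps. They ran from 8.50 to 8.79 in DN1, ACT1 and ACT2 and from 9.75 to 10.11 in DN2, DN3 and ACT3. These r values rest largely on the step between the clumps. Within the clumps obst-A, Pdss2 and Sgs7, chosen by r, also had the order of arrays of 151735_at. CG5938 and Fer1HCH each differed from it by an exchange of neighbouring arrays. All values of likeness are over the same 6 arrays and describe these samples only.

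The sum of salivary gland markers showed the same clumps. The log2 of the summed signal of all 7 listed salivary gland markers was 11.66, 12.02 and 13.37 in ACT1, ACT2 and ACT3, and 12.00, 13.68 and 13.75 in DN1, DN2 and DN3. The arrays had the same order in this sum as at 151735_at, and all 7 markers lay above the yeast controls on every array. Sgs7, picked above for its likeness to 151735_at, had the highest signal of these markers on every array. It read 10.30, 10.87 and 12.79 in ACT1, ACT2 and ACT3, and 10.79, 12.93 and 13.18 in DN1, DN2 and DN3. The likeness of the sum to 151735_at is therefore not independent of that choice. Single members did not all follow the sum. Apart from Sgs7, the markers Sgs3, Sgs5 and Sgs8 were each higher in DN2, DN3 and ACT3 than in the other arrays. Sgs5 read 7.17, 7.65 and 8.09 in ACT1, ACT2 and ACT3, and 7.28, 8.82 and 9.14 in DN1, DN2 and DN3. Sgs1, Sgs4 and fkh did not split the arrays in this way. Sgs1 read 8.36, 8.40 and 8.49 in ACT1, ACT2 and ACT3, and 8.27, 8.21 and 8.85 in DN1, DN2 and DN3. Sgs5 and Sgs1 were named after their values were seen. The 5 measured of 6 tracheal markers summed to 13.29 to 13.84 in dominant negative and 13.06 to 13.52 in activated discs. The 3 measured of 6 fat body markers summed to 12.03 to 13.05 in dominant negative and 11.00 to 12.64 in activated discs. ACT1 was lowest and set apart from the rest. The sums of hemocyte and myoblast markers did not follow these clumps, and that of eye disc markers ran the other way, higher in DN1, ACT1 and ACT2. All measured tracheal, fat body and myoblast markers lay above the yeast controls on every array as well. The hemocyte marker srp and the eye disc markers gl and lz exceeded the highest of these controls on no array. In bulk tissue, fewer cells of a type and less RNA per cell cannot be told apart, and the part of other tissues in the values of 151735_at and 142966_at was not tested.

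**Figure D2:**
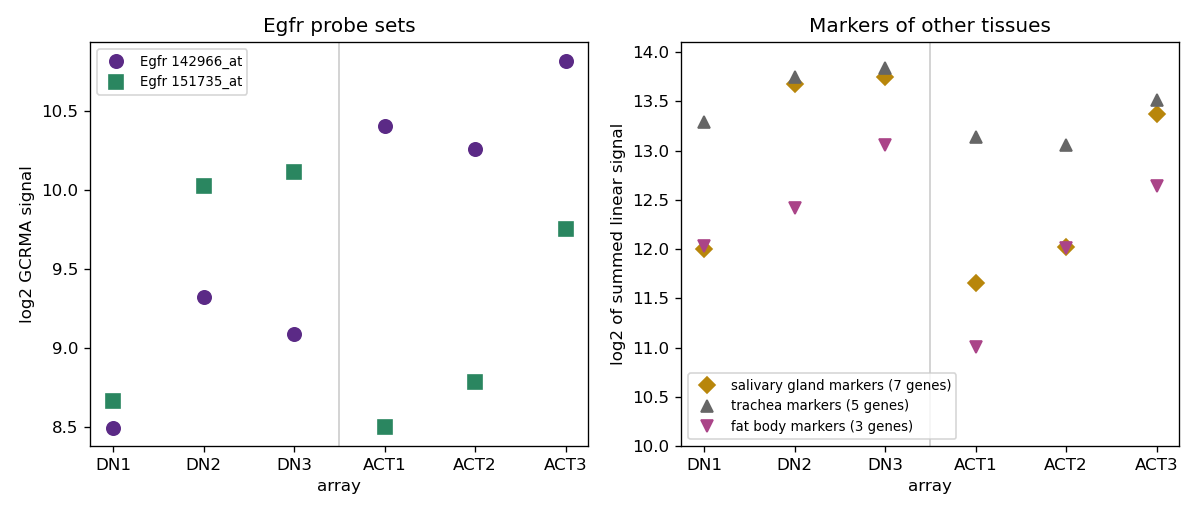
Left, log2 GCRMA signal of both Egfr probe sets on each array; right, log2 of the summed linear signal of salivary gland, tracheal and fat body markers on the same arrays. Probe set 142966_at separates the groups, while 151735_at is high in DN2, DN3 and ACT3 (9.75 to 10.11), the arrays with salivary sums of 13.37 to 13.75.

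None of the 9 other receptors separated the groups. Of these, 4 had a higher and 5 a lower mean in activated discs, with log2 differences from -0.33 to 0.57 and a median of -0.0022. The median over all probe sets was 0.016, and the median size regardless of sign was 0.098 for the 9 receptors and 0.10 for all probe sets. Called by limma at an adjusted p under 0.05 were 0 of the 11 receptor probe sets, as were 0 of 13966 over all (0%). At an unadjusted p under 0.05 there was 1 of 11 receptor probe sets, 142966_at, beside 2.21% of all. This count was 4 without DN1, where 151735_at, InR and htl joined it, beside 3.71% of all probe sets. It was 3 without ACT3, where 151735_at and InR joined it, beside 7.47% of all. Groups without overlap were seen for 1 of 11, again 142966_at, beside 6.23% of all probe sets.

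Among growth receptors, InR had the highest log2 difference of the 9. It read 8.91, 8.38 and 8.03 in ACT1, ACT2 and ACT3, and 8.52, 7.75 and 7.34 in DN1, DN2 and DN3. DN1 lay above ACT2 and ACT3, so the groups overlapped, and the lowest values were those of DN3 and DN2. InR differed by 0.57 on the log2 scale (SE 0.31, 95% interval -0.14 to 1.27, limma adjusted p = 1.00), and by 0.89 without DN1, 0.30 without DN3 and 0.33 without ACT1. Each activated array lay above the dominant negative array of the same number, by 0.39, 0.62 and 0.69 for numbers 1, 2 and 3. InR was above its mean over the 6 arrays in DN1, ACT1 and ACT2 and below it in the others, the opposite of 151735_at of Egfr.

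Pvr, the receptor of the Pvf ligands, read 7.67, 7.74 and 8.07 in ACT1, ACT2 and ACT3, and 7.56, 8.29 and 7.77 in DN1, DN2 and DN3. DN2 was the highest and DN1 the lowest of the 6, so the dominant negative discs spanned the activated ones. Their log2 difference of -0.046 (SE 0.20, 95% interval -0.51 to 0.42) changed sign without DN2 (0.16) or without ACT1 (0.035). A 1.34-fold higher or a 0.70-fold level in activated discs lay at the edges of that interval. Hemocytes, the blood cells that use Pvr, have 7 listed markers, all measured. Their sum was 10.32 to 10.66 in dominant negative and 10.65 to 10.88 in activated discs, with srp at or below the yeast controls on all arrays. Singly, 3 of the 7 had a higher and 4 a lower mean in activated discs, with a median log2 difference of -0.013. The marker of highest signal was PPO2, with means of 9.79 in activated and 9.40 in dominant negative discs. A second probe set of PPO2 differed by 0.090 with overlap. The part of hemocytes in the Pvr value was not tested.

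Neither FGF receptor gene separated the groups. The tracheal receptor gene btl read 7.71, 7.75 and 7.91 in ACT1, ACT2 and ACT3, and 7.87, 7.81 and 7.85 in DN1, DN2 and DN3. Its whole range over 6 arrays was 0.20, and only 3.21% of all probe sets had a smaller one. The log2 difference was -0.053 (SE 0.13, 95% interval -0.34 to 0.24), while the sum of tracheal markers given above spanned 13.06 to 13.84.

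The mesodermal receptor gene htl, which in the wing disc is known from the muscle precursors under the notum, read 5.87, 5.86 and 6.32 in ACT1, ACT2 and ACT3, and 5.99, 6.29 and 6.77 in DN1, DN2 and DN3. Its values were low, above all yeast controls on 4 of 6 arrays but above all non-fly controls on only 1 of 6. The groups overlapped at ACT3. With -0.33 (SE 0.22, 95% interval -0.83 to 0.16, limma adjusted p = 1.00) it had the lowest log2 difference of the 9, which moved between -0.51 without DN1 and -0.13 without DN3. The 5 measured of 6 listed myoblast markers, all above the yeast controls on every array, summed to 11.04 to 11.18 in dominant negative and 10.83 to 11.11 in activated discs. Their part in the htl value was not tested. The highest htl values were in DN3, ACT3 and DN2, the 3 arrays that were also high at 151735_at.

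**Figure D3:**
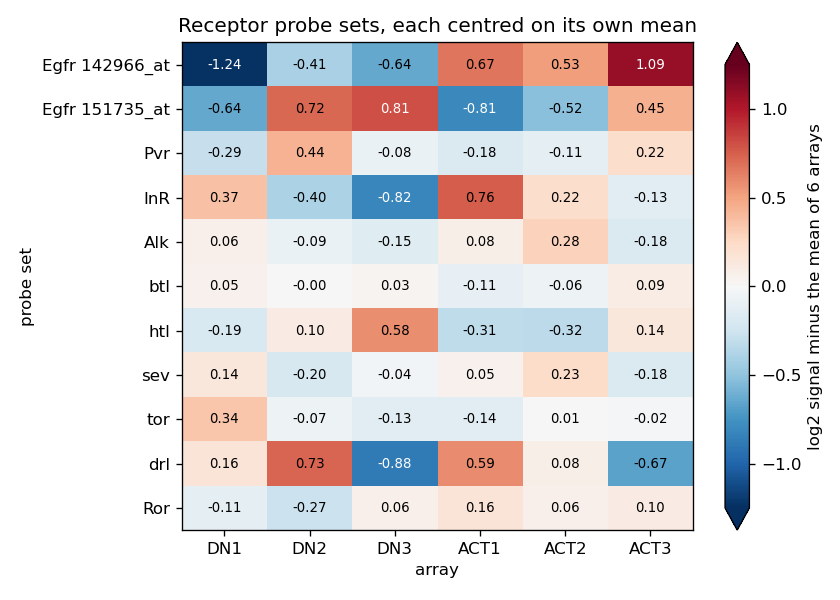
Log2 signal of each receptor probe set minus its mean over the 6 arrays (colour and number), by array. Egfr 142966_at is negative in the 3 dominant negative arrays (-1.24 to -0.41) and positive in the 3 activated ones (0.53 to 1.09), while InR and Egfr 151735_at have opposite signs on each array.

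Receptors best known from other organs gave small differences. The photoreceptor gene sev read 7.69, 7.87 and 7.45 in ACT1, ACT2 and ACT3, and 7.78, 7.44 and 7.60 in DN1, DN2 and DN3. The log2 difference was 0.067 (SE 0.16, 95% interval -0.29 to 0.43) and turned to -0.016 without DN2 and -0.032 without ACT2. Of the 8 listed eye disc markers, all measured, gl and lz did not exceed the highest yeast control on any array, 5 exceeded it on all 6 arrays, and the sum was 11.12 to 11.29 in dominant negative and 11.05 to 11.30 in activated discs. The sev signal lay above all yeast controls on 6 of 6 arrays, and the part of eye disc cells in it was not tested.

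The gene tor, the embryonic terminal receptor that also receives the hormone Ptth in the larval prothoracic gland, read 7.69, 7.83 and 7.81 in ACT1, ACT2 and ACT3, and 8.17, 7.76 and 7.70 in DN1, DN2 and DN3. DN1 was the highest of the 6, and without it the log2 difference went from -0.098 (SE 0.16, 95% interval -0.46 to 0.26) to 0.049. Alk, the receptor of the secreted ligand Jeb, read 5.39, 5.60 and 5.13 against 5.37, 5.22 and 5.16 in the same order of arrays. Ror read 5.57, 5.47 and 5.51 against 5.30, 5.14 and 5.47. Alk and Ror exceeded the highest yeast control on no array, so their log2 differences, 0.12 (SE 0.16) and 0.21 (SE 0.14), were measured at background level.

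The gene drl, a Ryk-family receptor of Wnt5 in axon guidance, varied widely within both groups, and its group means were nearly equal. It read 10.98, 10.47 and 9.72 in ACT1, ACT2 and ACT3, and 10.55, 11.12 and 9.51 in DN1, DN2 and DN3. The lowest value of each group was that of array number 3, and the SD was 0.63 in activated and 0.82 in dominant negative discs. The log2 difference was -0.0022 (SE 0.42), and its 95% interval, -0.94 to 0.94, ran from a 0.52-fold to a 1.92-fold level in activated discs. Its sign depended on the arrays used, from -0.44 without DN3 to 0.36 without DN2. The range over 6 arrays, 1.61, was wider than that of 98.8% of all probe sets. The values of 142966_at and 151735_at of Egfr and of InR spanned 2.32, 1.61 and 1.57, each wider than in 98.6% of probe sets or more.

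**Figure D4:**
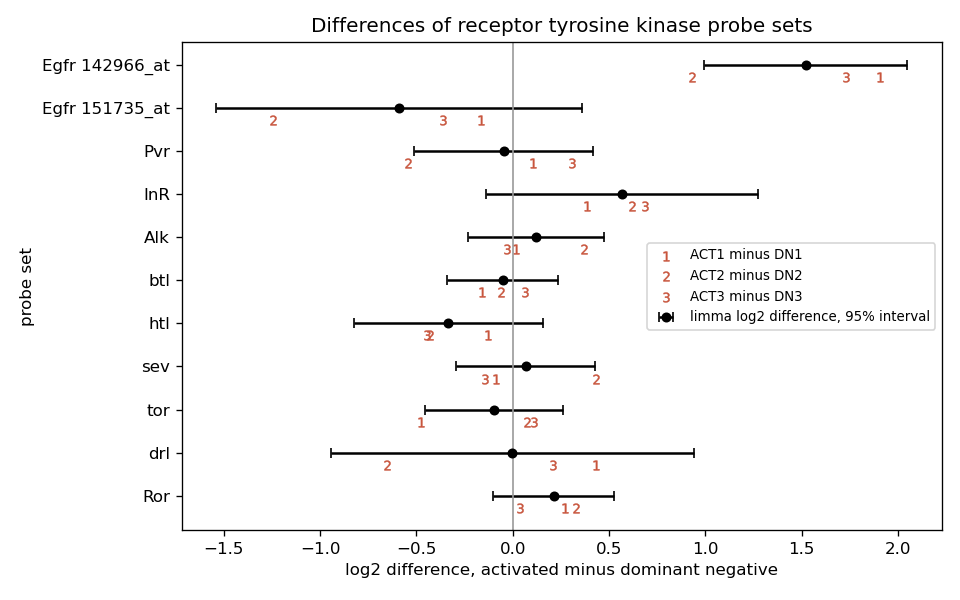
Log2 difference, activated minus dominant negative, of each receptor probe set (horizontal axis) with its 95% interval from limma (black), and the difference between same-numbered arrays as red digits. The interval of Egfr 142966_at, 0.99 to 2.05, lies above 0 and all others cross 0.

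The ligands of these receptors did not separate the groups either, apart from single genes. Of 23 listed names 16 had a probe set of their own; 10 were higher and 6 lower in activated discs, with a median log2 difference of 0.029, beside 0.016 over all probe sets. By limma none was called, and none had an unadjusted p under 0.05. Krn, which encodes an activating ligand of Egfr, read 8.50, 8.64 and 8.46 in ACT1, ACT2 and ACT3, and 8.34, 8.28 and 8.07 in DN1, DN2 and DN3. Its log2 difference was 0.30 (SE 0.14, limma adjusted p = 1.00), without overlap. With each gene taken by its probe set of highest mean, Ilp7, an insulin-like peptide gene, was the other ligand without overlap, at 0.15 (SE 0.12). So 2 of 16 were higher without overlap where 3.39% of all probe sets were. Pvf3 overlapped at that probe set, but another of its probe sets, with a mean signal of 5.67, had 0.21 (SE 0.12) without overlap. Ilp7 and Pvf3 were named after their values were seen.

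The main activating ligand gene of Egfr, spi, had 0.37 (SE 0.21) with overlapping groups. The next smallest p belonged to Ilp8 at 0.28 (SE 0.17), whose product is known to act through a receptor of another class, Lgr3, and to pyr, which encodes an FGF ligand of Htl, at 0.23 (SE 0.15). The genes bnl of the ligand of Btl, jeb of the ligand of Alk and boss of the ligand of Sev, chosen after their values were seen, had -0.064 (SE 0.14), -0.13 (SE 0.14) and 0.041 (SE 0.21). A second probe set of jeb, of nearly the same mean signal, had the opposite sign, 0.058 (SE 0.17).

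Adaptors and signal transducers lay close to 0 throughout. Of 25 listed names 13 were measured, 7 higher and 6 lower, with a median of 0.023 and a range from -0.18 to 0.21, and all had overlapping groups. By limma none was called or had an unadjusted p under 0.05. The smallest p belonged to csw, which encodes a phosphatase that transmits the signal, at 0.20 (SE 0.16), followed by the kinase gene Pdk1 at -0.18 (SE 0.15). Next came the adaptor gene drk at 0.21 (SE 0.18) and the MEK gene Dsor1 at 0.14 (SE 0.16). A second probe set of Pdk1, of lower mean signal, had the opposite sign, 0.054 (SE 0.18). Of further receptor tyrosine kinase genes outside the 10, 9 of 11 names were measured, 5 higher and 4 lower, with a median of 0.0055, and none was called or had an unadjusted p under 0.05 in limma. Their smallest p belonged to Ddr, the discoidin domain receptor gene, at 0.32 (SE 0.19), then Drl-2 at 0.24 (SE 0.17), dnt at -0.28 (SE 0.21) and Ret at 0.16 (SE 0.14), with overlap in each. Further probe sets of Drl-2 had 0.083 (SE 0.21) and -0.054 (SE 0.15), while those of Ddr and Ret were higher in activated discs as well. The genes Drl-2 and dnt are the paralogues of drl.

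Feedback regulators and ERK output genes, the readout downstream of Egfr, had a median log2 difference of 0.42 over 6 measured of 9 listed names, 5 higher and 1 lower. By limma none was called, and 3 of 6 had an unadjusted p under 0.05, beside 2.21% of all probe sets. Without overlap were 3 of 6, all higher, where 3.39% of all probe sets were. The lists were chosen with earlier results of these data known, so such shares describe them and do not test them. The Sprouty gene sty, an inhibitor of receptor tyrosine kinase signalling, read 10.17, 9.90 and 9.69 in ACT1, ACT2 and ACT3, and 9.16, 8.92 and 8.97 in DN1, DN2 and DN3. Its log2 difference, 0.90 (SE 0.16, limma adjusted p = 0.995), was smaller than that of 142966_at. The others without overlap were aos at 0.51 (SE 0.18) and the ERK phosphatase gene Mkp3 at 0.33 (SE 0.14), while kek1 had 0.87 (SE 0.45) with overlap. The aos signal lay near background. It exceeded the highest yeast control only in ACT3, at 6.04, below the highest non-fly control of that array, 6.56. A second probe set of Mkp3 had 0.31 (SE 0.18) with overlap. The remaining measured genes, aop and edl, had 0.083 (SE 0.33) and -0.052 (SE 0.23), also with overlap.

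**Figure D5:**
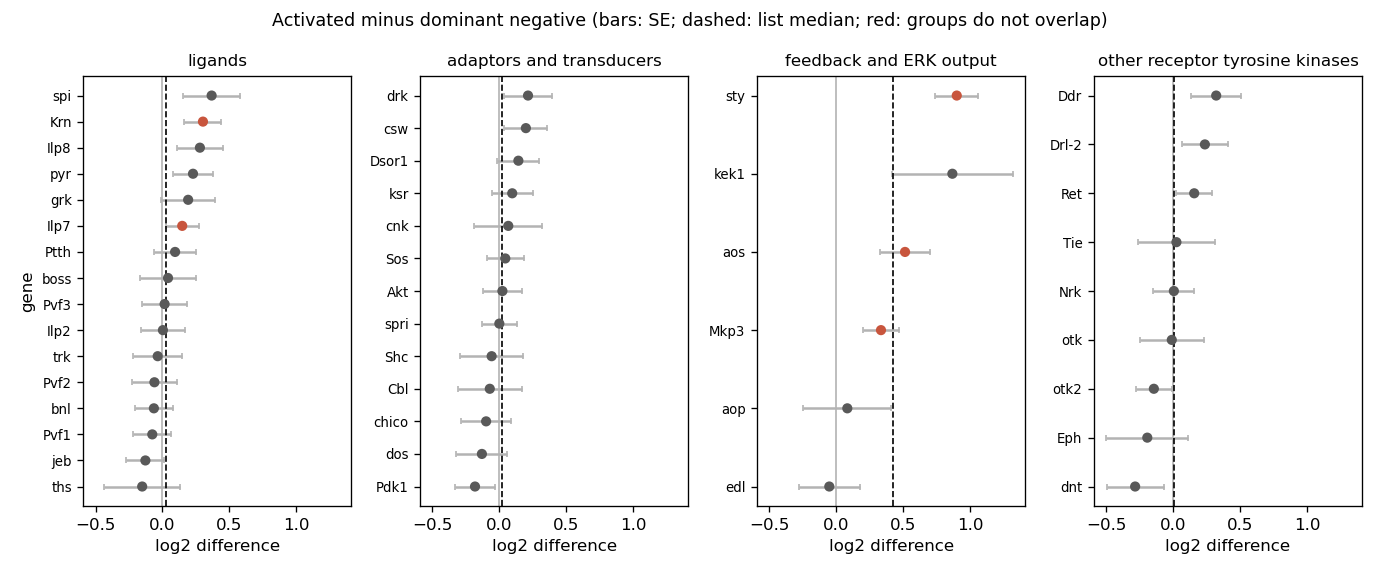
Log2 difference, activated minus dominant negative (horizontal axis), of each measured gene of 4 lists, with its SE; the dashed line is the list's median and red points are genes whose groups do not overlap. The medians are 0.029 for ligands, 0.023 for adaptors, 0.42 for feedback and ERK output and 0.0055 for other receptor tyrosine kinases.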

How the data were processed

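Biotin-labelled cRNA of wing discs was hybridised to Affymetrix arrays, per the labels. The authors deposited log2 values per probe set, made with GCRMA per the submitters' processing notes, without a stated version. That the scale is log2 was inferred from the range of the values. The number of arrays limits the precision, and scanner files were not used here. Of 14010 probe sets, 44 controls were left out and 13966 tested, with no filter on low values. The annotation gave 1 symbol for 12443 of them, several for 327 and none for 1196. The symbols of all 11 member probe sets were the same in RefSeq (Release 6 plus ISO1 MT).

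For the comparison of groups, lmFit and eBayes of limma 3.58.1 (R 4.3.3) were run over all tested probe sets, two-sided and without covariates, and p-values were adjusted by Benjamini-Hochberg. This fit was first tested on simulated data with known changes. A listed gene was represented by its probe set of highest mean. Named were all members, from each pathway list the 4 genes of smallest p, and the 5 probe sets most like each Egfr probe set. The members and lists were chosen with earlier results of these data known. Alternatives were filters, median centring, quantile normalization, a replicate block, a trend with robust prior, averaging the probe sets of a gene, array weights and leaving out each array. Plots were made in Python 3.11.15 with matplotlib 3.10.9.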

Additional observations from a re-analysis of the deposited data

How the results depend on the processing

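With 3 arrays per group, limma called 0 receptor probe sets under the 13 alternatives that kept probe sets apart, and over all probe sets it called 0 except with array weights, which called 1. Probe set 142966_at of Egfr kept its sign in all alternatives, between 1.28 and 1.70 with 1 array left out, and had the highest log2 difference in 11 of 14 settings; its rank was 3 with array weights and without DN1, and 5 without ACT3. Probe set 151735_at lay between -1.06 and -0.33 with 1 array left out and at -1.03 with array weights; the mean of both probe sets, 0.47, has the opposite sign by construction. Their disagreement, 2.11, lay between 1.90 and 2.34 with 1 array left out. With 1 array left out, Pvr lay between -0.20 and 0.16, sev between -0.032 and 0.18, tor between -0.19 and 0.049 and drl between -0.44 and 0.36. For drl the sign also turned with quantile normalization (0.067) and array weights (0.28); the cause was not tested. Receptor probe sets at an unadjusted p under 0.05 numbered 4 of 11 with array weights, 4 with the replicate block and 1 to 4 with 1 array left out, against 1. The shares over all probe sets were 7.94% with array weights, 5.54% with the replicate block and 1.38% to 7.47% with 1 array left out, against 2.21%. Over all probe sets the number was 1109 with array weights, 774 with the replicate block, 193 to 1043 with 1 array left out and 188 with a filter at a mean of 8, added after seeing the data, against 308; the filter tests fewer probe sets. Deviations of same-numbered arrays from their group means correlated at 0.61, -0.08 and 0.60 for numbers 1, 2 and 3. For unlike numbers these correlations ran from -0.68 to 0.29. Whether the numbers pair the samples is not known, and the main fit did not use them. In the replicate block the SE of InR was 0.13 and that of 151735_at 0.20, with limma adjusted p of 0.493 and 0.818. With the replicate block 142966_at had an adjusted p of 0.130, and an exact sign-flip test of the disagreement gave p = 0.25, the smallest that 3 pairs allow.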
